A study of Mus musculus with 3 samples.

Results

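The IκB genes encode the ankyrin-repeat proteins that bind the transcription factor NF-κB. The 6 genes described here were taken by name: the classical IκB genes Nfkbia, Nfkbib and Nfkbie, and the nuclear IκB genes Nfkbiz, Nfkbid and Bcl3. All 6 were found among the 55536 genes of the tables, and all had reads in every library. RNA had been depleted of ribosomal RNA and sequenced from the cytosolic fraction of C57BL/6J mouse bone-marrow-derived macrophages, which are grown out of marrow progenitors. There was 1 group of 3 libraries, numbered replicates 1 to 3 by the labels, each from 1 µg of RNA. Every culture had received lipid A, the Tlr4-binding part of bacterial lipopolysaccharide, at 100 ng/ml for 12 hours, had been washed free of it for 12 hours, and had received 100 ng/ml again for 60 minutes. The 3 biological samples stand under the same donor entry with age and sex not recorded, and nothing says whether they came from separate animals, so p-values measure only the spread between these samples, which may be technical. Untreated cells, cells stimulated once and the nuclear fraction were not analysed here, so all values are levels and none is a response to lipid A.

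Classical IκB proteins hold NF-κB dimers in the cytoplasm. When a receptor such as Tlr4 signals, the IκB kinase complex phosphorylates them on a pair of serines, a ubiquitin ligase containing β-TrCP marks them, and the proteasome destroys them, which frees NF-κB to enter the nucleus. Nuclear IκB proteins are not destroyed in this way and act on NF-κB dimers at DNA, where they can help or hinder transcription. Several IκB genes are themselves NF-κB targets, so the family forms feedback loops.

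The phosphorylation signal separates the classical from the nuclear proteins and can be read in the coding sequence of the leading transcript of each gene, the one with the largest share of the gene's TPM (a level per transcript length, scaled to a fixed total per library). The signal searched for was an aspartate, a serine, a glycine, any pair of residues and a serine. The coding bases around it, 5′ to 3′ from the mm10 genome, have the codons of its serines in capitals.
Nfkbia-201: cgccacgacAGCggcctggacTCCatgaag
Nfkbib-202: tggtgcgacAGCggcctgggcTCTctaggt
Nfkbie-201: cagtgtgacTCTggcatagagTCGctgcgc
The serines were encoded by codons 32 and 36 in Nfkbia, 19 and 23 in Nfkbib, and 18 and 22 in Nfkbie. The leading transcripts of Nfkbiz, Nfkbid and Bcl3 held no match. The same pattern occurred in 64 of 3755 coding genes at a mean of at least 10 TPM, or 1.7%.

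Binding motifs of NF-κB were searched in RefSeq promoter windows on GRCm38.p6, each from 250 bases before to 50 after an annotated start, on both strands. Windows were found for 5 of the 6 genes, 7 windows in all, with none for Nfkbiz. The κB consensus, a run of G, a variable centre and a run of C, matched in 4 of the 7 windows, against 1480 of 32851 windows (4.51%) across the table. The matches are shown in capitals within 30 bases on the gene's strand.
Nfkbia: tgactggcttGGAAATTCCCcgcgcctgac
Nfkbie: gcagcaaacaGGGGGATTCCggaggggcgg
Bcl3: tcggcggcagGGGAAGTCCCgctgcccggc
Nfkbid, distal match: gccccgccctGGGACTTCCCagagcaccac
Nfkbid, proximal match: gggccgaacaGGAATTCCCCgtgcgcgggg
The Nfkbia match lay at chr12:55492667-55492676, 29 to 20 bases before the start (minus strand). The Nfkbie match lay at chr17:45555594-45555603, 106 to 97 bases before the start (plus strand), and the Bcl3 match at chr7:19822744-19822753, within the first bases after it (minus strand). Both Nfkbid matches, at chr7:30422180-30422189 and chr7:30422225-30422234 (plus strand), belonged to the window of Nfkbid-202, a transcript with 1.5% of the gene's TPM. The window of Nfkbid-203, with 96.2%, held no match, and neither did that of Nfkbib, which belongs to a start used by Nfkbib-201 with 1.49%. A match is a stretch of letters and not a measured binding site. The 250 bases before the Nfkbia start give the context, with the same match in capitals.
Nfkbia upstream: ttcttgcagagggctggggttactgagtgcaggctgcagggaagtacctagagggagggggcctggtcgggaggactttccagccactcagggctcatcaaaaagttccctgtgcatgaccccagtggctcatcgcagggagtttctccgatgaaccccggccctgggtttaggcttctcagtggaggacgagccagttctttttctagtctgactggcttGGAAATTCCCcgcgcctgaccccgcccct

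Expected counts on genes totalled 46546422 to 53364168 per library, and 3 counts, the limit that a count of 0 allows, correspond to 0.0562 to 0.0645 CPM (counting error only). The macrophage markers Adgre1, Csf1r, Cd68, Itgam and Mertk were all above 1 TPM, with a sum of 1264 to 1672 TPM. None of 5 T and NK cell or 5 B cell markers was placed above it, with sums of 0.04 to 0.3 and 0.51 to 0.54 TPM, and Cd3g was listed at 0. Of 5 stromal markers 3 stood below 1 TPM, while Col1a1 (0, 2.53 and 1.28 TPM in replicates 1, 2 and 3) and Col3a1 (0, 2.03 and 0.77 TPM) were not placed on either side. Of 5 neutrophil markers, S100a8 and S100a9 stood above 1 TPM in a sum of 7.05 to 9.09 TPM, while Ly6g and Retnlg were listed at 0. Replicate 3 stood apart in nuclear RNA: in replicates 1, 2 and 3, Malat1 had values of 112, 90.6 and 452 TPM, and Rn7sk had values of 27778, 26912 and 68232 TPM. In bulk RNA, fewer cells of a type and less RNA per cell cannot be told apart.

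All 6 IκB genes stood above 1 TPM, and none below, at a limma adjusted p under 0.05 (Benjamini-Hochberg, on the log2(TPM + 1) scale). Of all 20685 genes tested, 44.5% stood above that level and 50.4% below it. Nfkbia was the most abundant at 530.3 ± 140 TPM (SD, n = 3), rank 69 of all genes, and Nfkbid the least at 12.69 ± 3.51. Within both classes a single gene carried most of the message: Nfkbia among the classical genes and Nfkbiz among the nuclear ones. The order was Nfkbia, Nfkbiz, Nfkbib, Nfkbie, Bcl3 and Nfkbid. The absolute level depended on the scaling: the mean of Nfkbia was 242.5 TPM in the second set of tables and 1748 TPM after rescaling over coding genes, and that of Nfkbid 5.847 and 42.16 TPM, with the same order of the 6 means in both.

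Nfkbia encodes IκBα, the classical inhibitor best known for its rapid destruction and resynthesis. It was measured at 576, 642 and 373 TPM in replicates 1, 2 and 3, from 58597, 80380 and 42003 expected counts (chr12:55489410-55492647, minus strand, mm10). The 3 libraries lay well above every other IκB gene, with replicate 3 the lowest. Its log2 level was 8.02 above that of 1 TPM (SE 0.23, limma adjusted p = 2.3e-08).

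Nfkbib encodes IκBβ, a classical inhibitor that is replaced more slowly than IκBα. It was measured at 40.8, 49.5 and 29.0 TPM (chr7:28758251-28767512, minus strand), a log2 level 4.32 above that of 1 TPM (SE 0.17, limma adjusted p = 1.5e-07). Nfkbie encodes IκBε, whose gene is also induced by NF-κB. It was measured at 36.1, 39.4 and 21.1 TPM (chr17:45555703-45563169, plus strand), a log2 level 4.01 above (SE 0.19, limma adjusted p = 1.7e-06). Both genes, like Nfkbia, were highest in replicate 2 and lowest in replicate 3.

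Among the nuclear genes, Nfkbiz encodes IκBζ, a coactivator needed for a set of late lipopolysaccharide response genes. It was measured at 228, 259 and 121 TPM, from 58438, 81164 and 34383 expected counts (chr16:55811375-55838899, minus strand). Its log2 level was 6.6 above that of 1 TPM (SE 0.25, limma adjusted p = 2.1e-07), rank 220 of all genes. Replicate 2 was 2.14-fold higher than replicate 3, the widest gap among the 6 genes.

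Nfkbid encodes IκBNS, a nuclear protein known to restrain some inflammatory genes. It was measured at 12.3, 16.4 and 9.42 TPM (chr7:30421732-30428746, plus strand), with a log2 level 2.74 above that of 1 TPM (SE 0.15, limma adjusted p = 2.6e-06). Bcl3 encodes a protein that binds p50 and p52 dimers, which lack activation domains of their own. It was measured at 20.8, 18.56 and 21.01 TPM (chr7:19808462-19822770, minus strand), 3.40 above on the log2 scale (SE 0.11, limma adjusted p = 4.1e-08). Unlike the other 5 genes, Bcl3 kept nearly the same TPM in all 3 libraries, within 1.13-fold. After rescaling over coding genes its range was 1.27-fold, against 1.62- to 2.03-fold for the other 5.

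**Figure D1:**
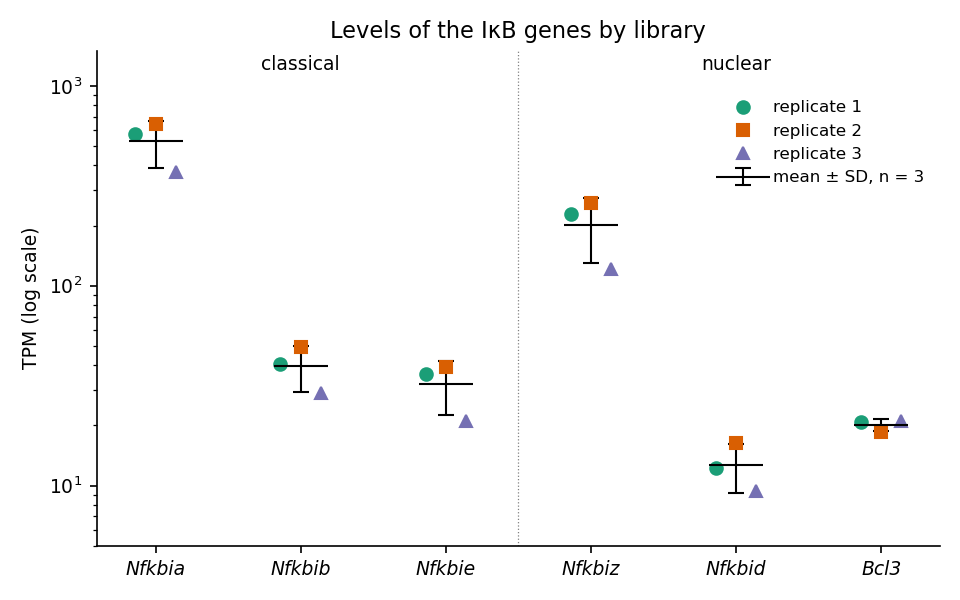
TPM of each IκB gene on a log10 axis, with a point for each of the 3 libraries, a wide line at the mean and error bars of 1 SD (n = 3). Nfkbia and Nfkbiz stand apart at the top, the other 4 genes lie at 9.42 to 49.5 TPM, and the Bcl3 points nearly coincide at 18.56 to 21.01 TPM.

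Neighbours in this order were compared within libraries as differences of log2(TPM + 1), where 3 libraries cannot give an exact sign-flip p below 0.25. Nfkbia exceeded Nfkbiz by 1.33, 1.31 and 1.62 in replicates 1, 2 and 3. Nfkbiz exceeded Nfkbib by 2.45, 2.36 and 2.02, the widest step in the order. Nfkbib exceeded Nfkbie by 0.17, 0.32 and 0.44, a small step with the same sign in 3 of 3 libraries (0.31 ± 0.13). The lower steps varied with the library. Nfkbie exceeded Bcl3 by 0.77, 1.05 and 0.01, so that they stood level in replicate 3, and the mean of 0.61 ± 0.54 fell to 0.39 without replicate 2 and was 0.91 without replicate 3. Bcl3 exceeded Nfkbid by 0.72, 0.17 and 1.08 (0.65 ± 0.46), a mean of 0.44 without replicate 3 and 0.90 without replicate 2. These last steps were little larger than their own SD.

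Proportions that rest mainly on Nfkbia and Nfkbiz were steadier than the levels of these genes. Ratios to Bcl3 varied more than its own level. In replicates 1, 2 and 3, Nfkbie over Bcl3 was 1.73, 2.12 and 1.01, and Bcl3 over Nfkbid was 1.7, 1.13 and 2.23. Classical IκB genes summed to 2.5, 2.49 and 2.80 times the nuclear ones in replicates 1, 2 and 3 (2.60 ± 0.173, SD, n = 3). Nfkbia held 63.0%, 62.7% and 64.9% of the TPM of the 6 genes, and with Nfkbiz 88.0%, 87.9% and 86.0%. Among the nuclear genes, Nfkbiz held 87.3%, 88.1% and 79.9%, lowest in replicate 3, where Bcl3 did not share its lower level. By expected counts, which grow with transcript length, Nfkbia and Nfkbiz were nearly equal, at a ratio of 1.07 ± 0.13 against 2.70 ± 0.335 by TPM.

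Variation between the libraries exceeded counting noise for all 6 genes (chi-square test of expected counts, 2 degrees of freedom, Benjamini-Hochberg adjusted p under 0.05), as it did for 69.3% of the 13075 genes tested. The chi-square was 7694 for Nfkbia, 13180 for Nfkbiz and 40.8 for Bcl3 (adjusted p = 4.9e-09). Without replicate 3 that of Bcl3 was 0.188 (adjusted p = 0.74), and without replicate 2 that of Nfkbid was 4.10 (adjusted p = 0.078). By TPM, the highest library exceeded the lowest 2.14-fold for Nfkbiz and 1.87-fold for Nfkbie. It did so 1.71- to 1.74-fold for Nfkbia, Nfkbib and Nfkbid, but 1.13-fold for Bcl3. Among the 4132 genes at a mean of at least 10 TPM, the SD of log2(TPM + 1) stood at percentile 96.8 for Nfkbiz, 88.6 to 94.2 for Nfkbia, Nfkbib, Nfkbie and Nfkbid, and 15.5 for Bcl3. These percentiles were computed only on TPM without rescaling, in which genes in general shifted between libraries. After rescaling over coding genes, Bcl3 deviated from its mean by -0.14, -0.06 and 0.20 in replicates 1, 2 and 3. In replicates 1 and 3 this lay outside the quartiles of the 4132 genes (-0.12 to 0.06 and -0.07 to 0.10).

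The libraries differed in a shared direction for 5 of the 6 genes. Nfkbia, Nfkbib, Nfkbie, Nfkbiz and Nfkbid were highest in replicate 2 and lowest in replicate 3, as were 14.8% of the 4132 genes, a pattern chosen after the values were seen. The same 5 genes showed it in TPM rescaled over coding genes (16.7% of genes), in TMM-scaled CPM (23.2%) and in the second set of tables. For the second tables the share of all genes was not counted. There the median deviation of the 4132 genes was itself highest in replicate 2 and lowest in replicate 3 (-0.02, 0.11 and -0.09 in replicates 1, 2 and 3). The libraries also differed in the TPM of genes in general, whose median deviation from the mean of the 3 libraries was 0.15, -0.04 and -0.12 on the log2 scale in replicates 1, 2 and 3. Relative to that median, Nfkbiz stood at 0.09, 0.46 and -0.55, and Nfkbia at 0.00, 0.35 and -0.35. Nfkbie stood at 0.06, 0.37 and -0.42, Nfkbib at -0.08, 0.38 and -0.29, and Nfkbid at -0.17, 0.42 and -0.25. These 5 genes thus lay above the general shift in replicate 2 and below it in replicate 3. Bcl3 stood at -0.10, -0.07 and 0.18, and was highest in replicate 3 under each of the 4 scalings. Its lowest library was replicate 2 in TPM and TMM-scaled CPM, and replicate 1 in the other scalings. The nuclear RNAs Malat1 and Rn7sk were highest in replicate 3, where the 5 genes were lowest, and their part in the result was not tested. The 5 stromal markers summed to 0.04, 5.19 and 2.38 TPM in replicates 1, 2 and 3, highest in replicate 2, where the 5 genes were highest. The 5 macrophage markers summed to 1672, 1264 and 1490 TPM, lowest in replicate 2, as were Adgre1, Cd68, Itgam and Mertk singly. Csf1r, at 140, 153 and 120 TPM, was highest in replicate 2 and lowest in replicate 3. The part of these cell type markers in the result was not tested either.

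**Figure D2:**
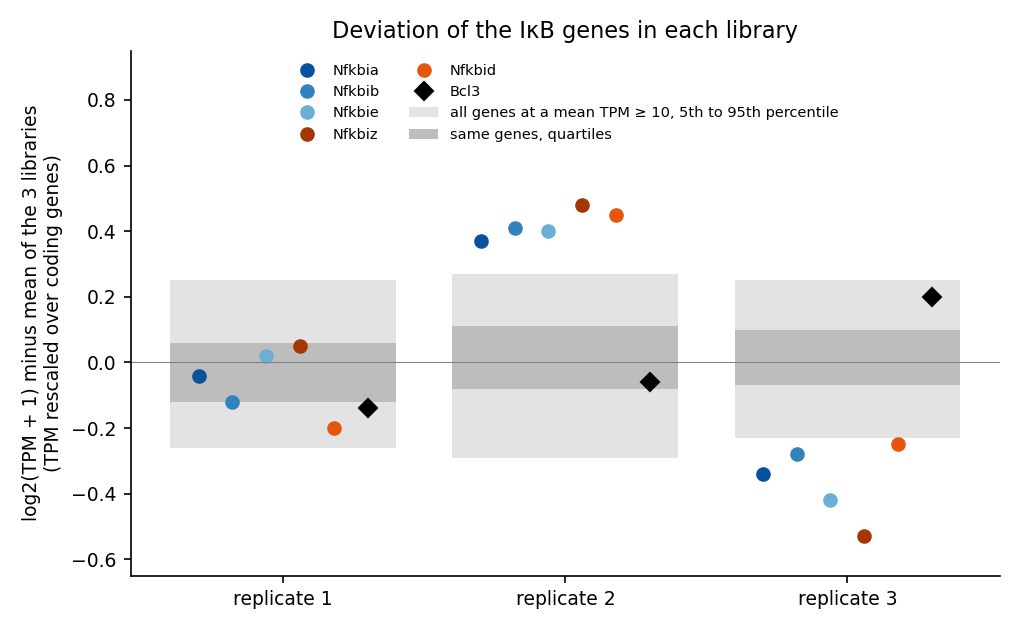
Deviation of each IκB gene from its mean over the 3 libraries, as log2(TPM + 1) with TPM rescaled over coding genes, beside the quartiles (dark band) and the 5th to 95th percentile (light band) of genes at a mean of at least 10 TPM. The 5 round points of replicate 2 lie at 0.37 to 0.48 and those of replicate 3 at -0.53 to -0.25, outside the light bands, while the Bcl3 diamonds stay within them.

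Among the 4132 genes, the profile over the 3 libraries nearest to each IκB gene was sought by the Euclidean distance of mean-centred log2(TPM + 1), a likeness over 3 points that many genes share. Nearest to Nfkbia were Mki67 (0.019) and Pnrc1 (0.0448), and to Nfkbib Dnajb4 (0.0134) and Tceal9 (0.0264). Nearest to Nfkbie were Plek (0.0378) and Bcl2a1b (0.044), the last a member of a multigene family whose reads may be divided uncertainly. Nearest to Nfkbiz were Csrnp1 (0.029) and Sdc4 (0.0608), to Nfkbid Gtf2b (0.0402) and Igf1 (0.0515), and to Bcl3 Atp2a2 (0.00238) and Gm49342 (0.00348). Within the family the closest pair was Nfkbia and Nfkbie at 0.0865, then Nfkbib and Nfkbid at 0.102. Bcl3 lay 0.648 to 0.924 from the other 5.

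The 6 genes have 24 annotated transcripts, and in each gene a protein-coding transcript led. Nfkbia-201 (314 codons) held 99.64%, 99.78% and 99.71% of its gene's TPM, and Nfkbib-202 (359 codons) held 98.74%, 98.20% and 98.59%. Nfkbie-201 (364 codons) held 92.27%, 94.42% and 91.26%. The retained-intron transcript Nfkbie-202 held 2.26%, 1.24% and 4.10%, highest in replicate 3, the library with the most Malat1 and Rn7sk, whose part in this share was not tested.

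Nfkbiz used both of its start regions, which lie 16761 bases apart, and the main transcripts from them encode proteins of different length. Another annotated transcript from the outer start also encodes 728 codons, and it was listed at 0 TPM in all 3 libraries. Nfkbiz-204 begins at the inner start (chromosome 16, 55822138), has 12 exons and encodes 728 codons, and it held 85.78%, 83.06% and 88.31% of the gene's TPM. Nfkbiz-203 begins at the outer start (55838899), has 13 exons and encodes 629 codons, 99 fewer, and it held 13.65%, 16.11% and 10.91%. The inner transcript was thus the major form in every library, at 6.29, 5.16 and 8.09 times the outer one. All transcripts from the outer start together held 14.2% ± 2.51 (SD, n = 3), and 15.4% ± 2.44 in the second set of tables.

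Nfkbid-203 held 97.15%, 96.63% and 94.93% of its gene's TPM, and its annotated coding sequence of 470 codons begins with CTG in place of ATG. The shorter coding forms Nfkbid-201 and Nfkbid-202 have 327 codons. The division among them depended on the quantification, since the second set of tables gave Nfkbid-203 85.6% ± 4.74 and Nfkbid-202 10.3%. Bcl3-201 (448 codons) held 87.97%, 80.56% and 81.52%. Bcl3-203, a short form of 114 codons starting near the 3′ end of the gene, held 11.32%, 19.20% and 17.63%, but only 3.49% on average in the second set of tables.

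**Figure D3:**
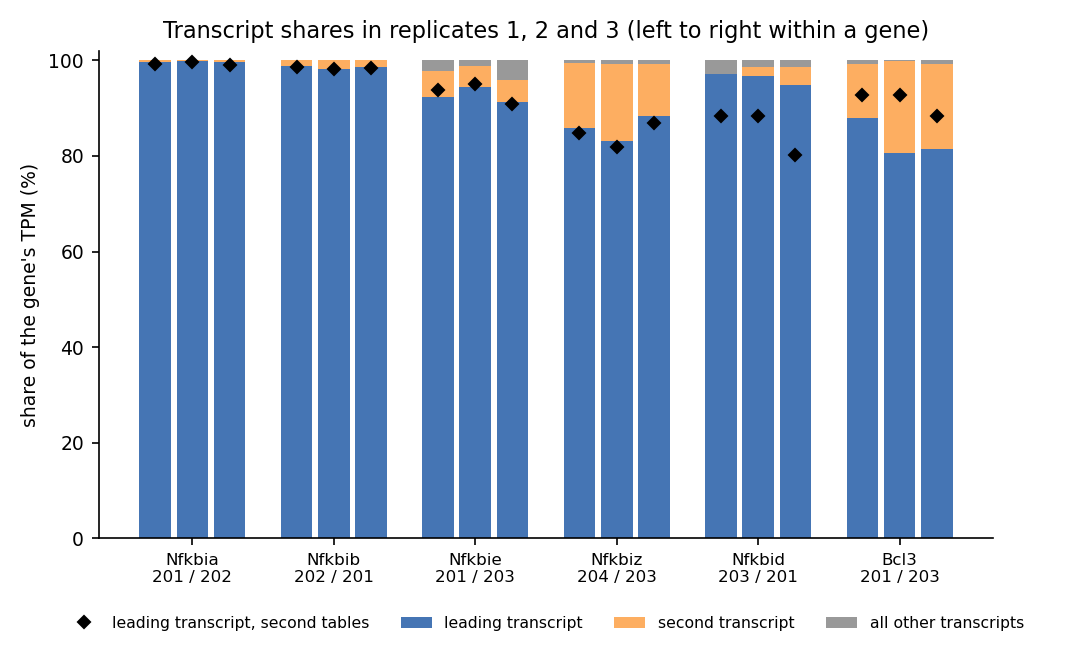
Share of each gene's TPM in its leading transcript (blue), its next transcript (orange) and all others (grey), as stacked bars for replicates 1, 2 and 3, with diamonds for the leading transcript in the second set of tables. Nfkbia and Nfkbib are almost wholly 1 transcript, Nfkbiz divides 85.7% to 13.6% on average, and the diamonds part from the bars for Nfkbid and Bcl3.

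Since no strand setting is stated, reads from genes that overlap on opposite strands cannot be told apart. Nfkbib overlaps Sirt2 over 778 bases at its 5′ end. That stretch begins upstream of the starts of Nfkbib-202 and Nfkbib-201 and touches only Nfkbib-203, which was listed at 0 in all 3 libraries. At its 3′ end Nfkbib overlaps Ccer2 over 718 bases, a gene with 1, 0 and 0 expected counts in replicates 1, 2 and 3. Bcl3 overlaps the antisense genes Gm16174, with 6 or 7 expected counts per library, and Gm16175, listed at 0, against at least 2338 expected counts for Bcl3 itself.

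Against 44.5% of all 20685 genes tested, the partners of the IκB proteins were all measured above 1 TPM, each at a level below Nfkbia. This held for 5 of 5 Rel subunits, the proteins that IκB binds, with 26.2 ± 3.83 TPM for Rela and 23.5 ± 7.65 for Rel. Rel, which encodes c-Rel, was measured at 25.5, 29.9 and 15.0 TPM. Like the 5 IκB genes it was highest in replicate 2 and lowest in replicate 3, as were 3 of the 5 Rel subunits, against 14.8% of genes at a mean of at least 10 TPM. The 6 IκB genes summed to 6.97, 7.44 and 5.90 times the 5 Rel subunits (6.77 ± 0.788), and the classical genes alone to 4.88 ± 0.488 times.

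The machinery that destroys classical IκB proteins covered a range of levels, beside 44.5% of all genes tested standing above 1 TPM. All 3 IκB kinase genes stood above 1 TPM: Ikbkb, the main catalytic subunit of the classical pathway, at 19.9 ± 1.18 TPM, Chuk, the other catalytic subunit, at 9.89 ± 1.63, and Ikbkg, the regulatory subunit, at 7.18 ± 0.266. All 5 ubiquitination genes did, and they summed to 96.8 to 139 TPM per library, close to the 97.2 to 138 TPM of the Rel subunits. The highest were Rbx1 at 47.2 ± 8.74 TPM and Skp1a at 34.5 ± 6.83, core parts of the ligase. Of the paralogous β-TrCP genes, which recognise the phosphorylated IκB, Fbxw11 stood at 19.9 ± 3.82 TPM and Btrc at 3.29 ± 0.441. All 6 regulators and partners did, among them Nkiras2, which binds IκB and slows its degradation, at 17.4 ± 2.22 TPM, and Akirin2, which links IκBζ to chromatin remodelling, at 13.1 ± 2.71.

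The messages of Nfkbiz and Nfkbid are known targets of mRNA decay factors. All 3 of those listed stood above 1 TPM, as did 44.5% of all genes tested. They were the endonuclease gene Zc3h12a at 26.4 ± 5.31 TPM, Rc3h1, which encodes Roquin, at 6.20 ± 1.26, and Rc3h2 at 6.50 ± 1.40.

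Of 5 genes known to need IκBζ in lipopolysaccharide-treated macrophages, 3 stood above 1 TPM and 1 below. Among all genes tested, 44.5% stood above that level and 50.4% below it. Il6, an inflammatory cytokine, was measured at 8.66, 12.5 and 3.80 TPM, and Il12b, a subunit of interleukin 12, at 3.93, 7.94 and 2.38. Both had the same highest and lowest libraries as Nfkbiz, as did Csf2 and Csf3, 4 of the 5 listed genes. This pattern held for 14.8% of genes at a mean of at least 10 TPM, a level that none of these 4 reached. Csf3 in every library, and Csf2 in replicates 1 and 3, stayed under 1 TPM, so their order rests on low values. Lcn2, which binds bacterial iron carriers, was measured at 20.6, 10.7 and 16.9 TPM, lowest in replicate 2. Csf2 was measured at 0.41, 3.87 and 0.31 TPM and was not placed on either side (limma adjusted p = 0.92), and Csf3 at 0.18, 0.22 and 0.13 TPM stood below.

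**Figure D4:**
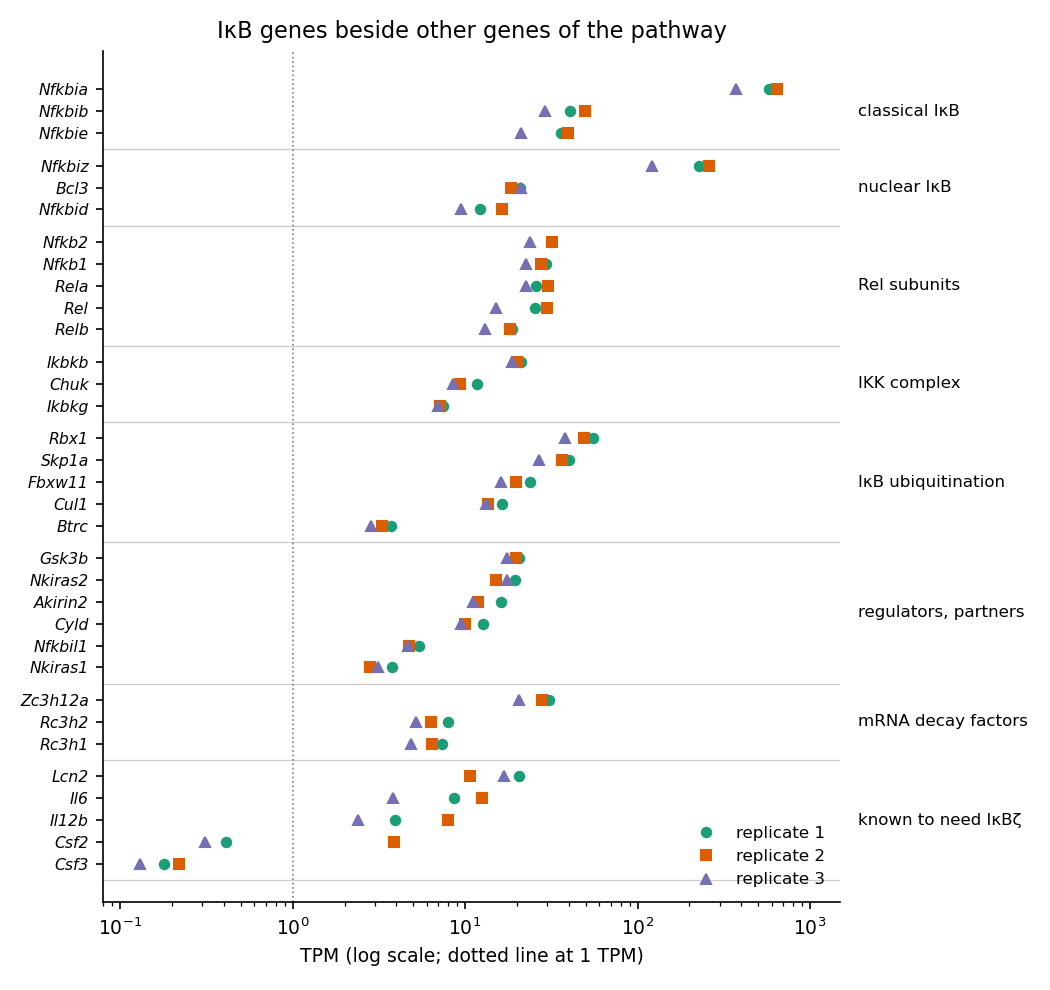
TPM of the IκB genes and of the pathway lists in the 3 libraries on a log10 axis. Nfkbia and Nfkbiz lie above every other gene shown, Csf3 is the lowest at 0.13 to 0.22 TPM, and the Csf2 points spread from 0.31 to 3.87 TPM.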

How the data were processed

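Expected counts and TPM per gene, and the percent of each gene in each transcript, were deposited by the authors on mm10 with GENCODE M21, per the file headers and the text deposited with each library. A second set of transcript tables, made directly from the reads per that text, was summed to genes. Neither the aligner, nor the quantifier, nor the strand setting is given in the sources used here. Symbols were mapped to gene identifiers through the second tables, and coordinates came from the same annotation release.

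The level test used limma 3.58.1 under R 4.3.3 (intercept of log2(TPM + 1) against 1 TPM, trend and robust, 20685 genes with TPM above 0, two-sided), which compresses low values. Noise was tested by chi-square on rounded expected counts (sum of at least 30), and p-values were adjusted over all genes tested. edgeR 4.0.16 (TMM) and DESeq2 1.42.0 (size factors) gave other scalings. Coding sequence was read with biopython 1.88. Simulated data held 20685 genes with a common spread for the level test, and 13075 genes with counting noise for the noise test. The level test called 100% of a subset shifted by 1 on the log2 scale and 4.5% of a subset at 1 TPM. The noise test called 100% of a subset changed 1.5-fold in 1 library (at least 1000 counts) and 0.05% under noise alone.

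Named genes were the 6 members, members of the pathway and marker lists, the 2 nearest profiles per member at a mean of at least 10 TPM, transcripts of at least 5%, and retained-intron transcripts of at least 1%. Members and lists were chosen with earlier results of these data known. With 1 group, no comparison between conditions was made. Alternatives were other levels, pseudocounts, filters, scalings, tables and transcript sets, and leaving out each replicate.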

Additional observations from a re-analysis of the deposited data

How the results depend on the processing

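No paired analysis was possible because the series has 1 group. The count of IκB genes above 1 TPM was 6 under all but 1 alternative run, a level of 10 TPM, where Nfkbid was 0.28 above on the log2 scale (limma adjusted p = 0.12) and the count was 5. Over the alternatives, the adjusted p ran from 2.5e-12 to 0.0012 for Nfkbia and from 7.6e-09 to 0.12 for Nfkbid. By expected counts, which are not per length, the classical over nuclear ratio was 1.14, the share of Nfkbia in the 6 genes 46.1%, and the IκB over Rel subunit ratio, an alternative chosen after seeing the data, 3.70. The second tables gave shares of 99.31% for Nfkbia-201, 85.61% for Nfkbid-203 and 91.28% for Bcl3-201. Over protein-coding transcripts only, Nfkbia-201 held 100% and Nfkbie-201 95.06%. Leaving out each replicate gave 5 to 6 genes beyond noise, a classical over nuclear ratio of 2.5 to 2.65 and an Nfkbia share of 62.9% to 64.0%. The step from Nfkbie to Bcl3 ranged from 0.39 to 0.91, and the chi-square of Bcl3 without replicate 3 was 0.188 and of Nfkbid without replicate 2 4.099. The causes were not tested. The count of 5 genes highest in replicate 2 and lowest in replicate 3 held under the 3 other scalings, which were chosen after seeing the data. Depth did not limit the levels, since every IκB gene had at least 1401 expected counts per library, and 3 libraries limit the precision of every SD.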
